A study of Mus musculus with 6 samples.

Results

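The glycolytic enzymes, the glucose transporter Slc2a1 and the kinase Pdk1 were followed in mouse embryonic fibroblasts of wild type mice and of mice whose Wrn helicase is mutated. The 10 genes were Slc2a1, Hk2, Gpi1, Pfkl, Pfkp, Aldoa, Pgk1, Eno1, Ldha and Pdk1, and every array probe named for one of them was used. By the array's gene names 8 genes and 14 probes were found. Ldha and Pdk1, which the array lists as Ldh1 and D530020C15Rik, were found through their RefSeq accessions and added 3 probes. The total was 17 of 41174 probes and 10 of 30820 gene names. The study used 6 two-colour arrays, 2 for each of 3 comparisons, of RNA from primary fibroblasts of day 15 embryos (E15). The wild type cells (WT in the labels) and the Wrn Δhel/Δhel cells (WS in the labels) came from mice of a mixed genetic background. The mutant allele lacks part of the helicase domain in frame, in all cells of the animal. The compared states were untreated wild type cells, wild type cells treated with H2O2, untreated mutant cells and mutant cells treated with H2O2. Treated cells received 0.5 mM H2O2 for 1 hour and recovered in fresh medium for 24 hours before RNA was taken. All 4 states were grown in low glucose DMEM with serum.

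Glucose enters fibroblasts mainly through the facilitative transporter encoded by Slc2a1, also called GLUT1. Hexokinase traps it as glucose 6-phosphate, and the cytosolic glycolytic enzymes convert it to pyruvate with a net yield of ATP and NADH. Lactate dehydrogenase A then reduces pyruvate to lactate, while Pdk1 phosphorylates and inhibits the pyruvate dehydrogenase complex. Many of these genes are known targets of the hypoxia-inducible factor HIF1 and of Myc.

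Each array carried 41534 spots that were not controls, and Cy3 stood well above background on 75.8 to 90% of them, against 41.5 to 69.2% for Cy5. The scanner software had marked 0.4 to 8.81% of the spots as outliers on 5 arrays and 22.6% on replicate 2 of treated against untreated wild type cells. Of the 102 member spots, 22 were marked as outliers, 8 of them on that array, and 0 were saturated. Marked spots were left out of the tests, and their values are given separately. Since most genes thus had 1 or 2 arrays per comparison, the number of arrays limits the precision. The treated cells carried Cy5 on all 4 treatment arrays and the mutant cells, by the direction used here, carried Cy5 on both others, so no dye was exchanged. As a measure of dye preference, the Cy5 level of untreated mutant RNA on the arrays with both genotypes was set against the Cy3 level of untreated mutant RNA on the treatment arrays. This dye value takes the mutant to be in Cy5, a choice explained below, and keeps marked spots. Over all probes this log2 Cy5 over Cy3 value had a median of -0.03, and its 10th and 90th percentiles were -0.75 and 0.57. All 12 listed fibroblast markers stood well above background in both dyes on each of the 6 arrays. Markers of other cell types often did too. Of 12 skeletal muscle markers, 9 to 12 did so in Cy3 and 5 to 11 in Cy5, depending on the array. Standing above background therefore does not establish the identity of the cells.

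**Figure D1:**
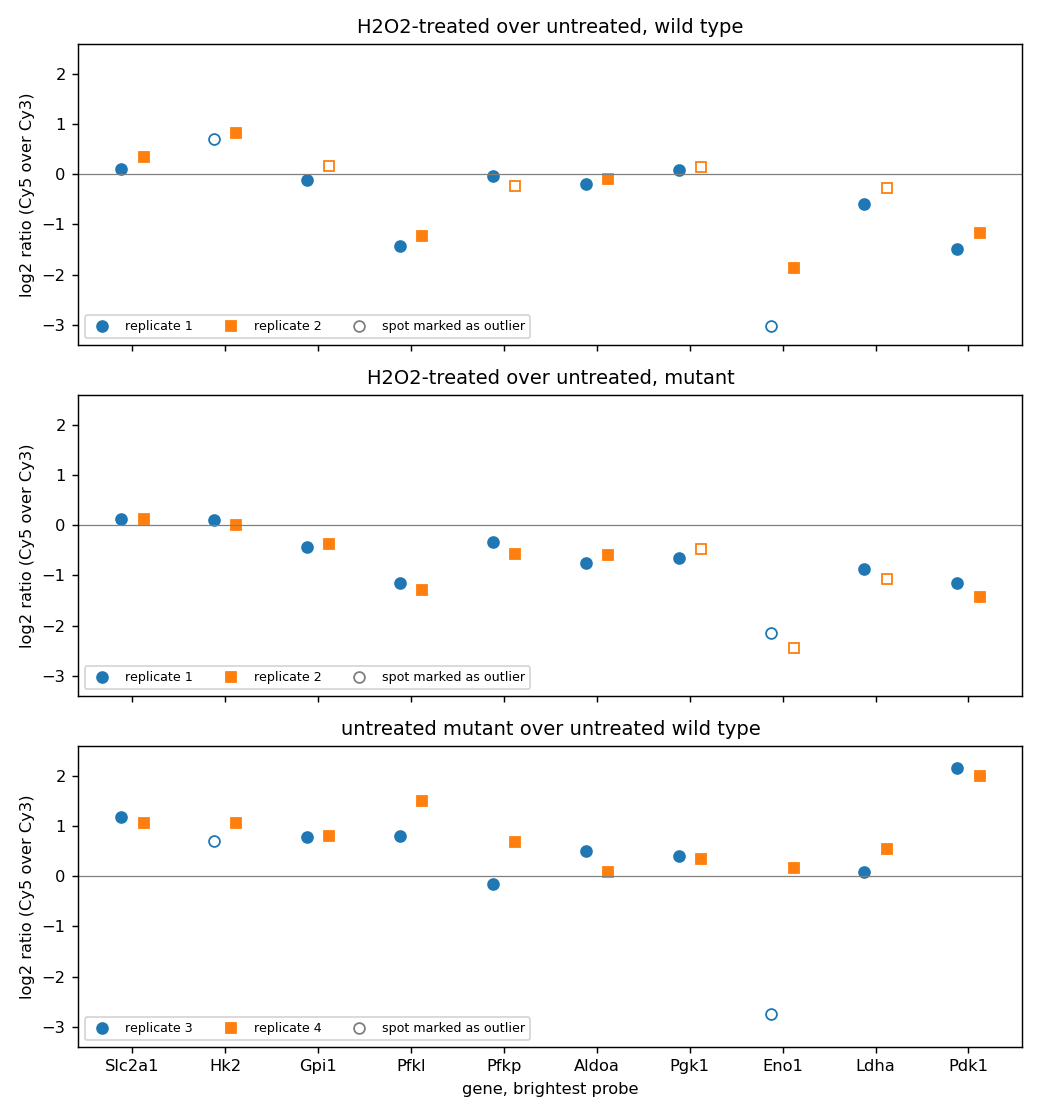
Log2 ratio of Cy5 over Cy3 (vertical axis) of the brightest probe of each of the 10 genes (horizontal axis), 1 panel per comparison and 1 symbol per array. Filled symbols entered the tests and open symbols are spots marked as outliers. Pdk1, Pfkl and Aldoa lie below 0 on all 4 treatment arrays by filled symbols, and Pfkp, Eno1 and Ldha do so with open symbols counted. In the lowest panel every gene but Pfkp and Eno1 lies above 0 on both arrays.

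In untreated cells, 5 of the 10 genes were higher in the mutant than in the wild type and 0 were lower. They were Slc2a1, Hk2, Gpi1, Pfkl and Pdk1, with increases of 1.74-fold for Gpi1 to 4.24-fold for Pdk1. The sign rests on a choice. The sample labels put wild type RNA in Cy5 on these arrays, while the study's own gene table runs as mutant over wild type. Mutant over wild type was taken as Cy5 over Cy3, because over 4788 called probes this ratio and the genotype difference in Cy3 of the treatment arrays had a Pearson r of 0.875 and shared their sign for 91.9%. These probes were selected by the ratio, so the r is a description. With the dyes as labelled, every sign below in this comparison turns, and Pdk1 would read -2.08. The test was limma's moderated test on all 6 arrays, and a gene was called at an adjusted p under 0.05 on its brightest probe. Of all genes, 19.1% were called, 10.6% higher and 8.52% lower. That share moved with single arrays, from 8061 called probes to 16160 without replicate 3 and to 3704 without either treatment array of the mutant.

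Slc2a1, the glucose transporter at the head of the pathway, had log2 ratios of 1.18 and 1.06 on the arrays with both genotypes. The mean of 1.12 ± 0.16 (n = 2) was a 2.17-fold difference (adjusted p = 0.00565). Values after ± are limma's moderated SE throughout. It takes the spread from all arrays of the fit and from other genes, not from these 2 arrays alone. Both arrays lay on the same side of 0.

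Hk2, the inducible hexokinase that takes the first step of glycolysis, was measured on replicate 4 with a log2 ratio of 1.07, while its spot on replicate 3 was marked and read 0.70. On the unmarked array the mutant level was 2.09-fold that of the wild type (adjusted p = 0.0428). With the marked spot kept the log2 ratio was 0.89 ± 0.17 (adjusted p = 0.0111). The call without it rests on 1 spot, with the spread taken from other genes and arrays.

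Gpi1, which converts glucose 6-phosphate to fructose 6-phosphate, had log2 ratios of 0.79 and 0.80 on its brightest probe. This was a 1.74-fold difference (0.80 ± 0.16, adjusted p = 0.0212). The call was lost with the day of feature extraction given in the scanner files as a random block. The dimmer probe of Gpi1 read 0.16 and 0.56 and was not called (adjusted p = 0.176). Only 3 of the 6 arrays measured that probe well above background in Cy5.

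Pfkl and Pfkp are the liver and platelet forms of phosphofructokinase, the committed step of glycolysis. Pfkl had log2 ratios of 0.81 and 1.5, a mean of 1.16 ± 0.20 and a 2.23-fold difference (adjusted p = 0.0109). The brightest Pfkp probe lay on either side of 0, at -0.15 and 0.68, with a mean of 0.26 and an interval from -0.32 to 0.84. The other 2 Pfkp probes had means of -0.13 and 0.68, neither called, so the probes of this gene did not settle a direction.

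The genes of the later steps were not called. Aldoa, the aldolase that splits fructose 1,6-bisphosphate, read 0.50 and 0.09 (mean 0.30, interval -0.10 to 0.70). Pgk1, the first ATP-forming enzyme of the pathway, read 0.40 and 0.34 (mean 0.37, interval -0.08 to 0.82). Ldha read 0.09 and 0.55 (mean 0.32, interval -0.20 to 0.84). The intervals reach from slightly below 0 to less than 1 on the log2 scale. The enolase gene Eno1 had 1 unmarked spot on its brightest probe, which read 0.16 on replicate 4 (interval -0.60 to 0.92, adjusted p = 0.72), and the marked spot on replicate 3 read -2.74. Its second probe was not well above background in Cy5 on any array.

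Pdk1 had the largest difference of the 10 genes. Its log2 ratios of 2.17 and 2.00 gave a mean of 2.08 ± 0.17 and a 4.24-fold higher level in the mutant (adjusted p = 0.0013). Neither spot was marked as an outlier.

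The dye values of the called genes were above 0 and depended on the direction. With the mutant in Cy5 they were 0.38 for Slc2a1, 0.74 for Hk2, 0.38 for Gpi1, 0.25 for Pfkl and 0.61 for Pdk1. With the dyes as labelled, where the Cy5 and Cy3 levels compared are both of wild type RNA, they were 1.29, 1.39, 1.18, 1.52 and 2.55. Eno1 had -1.98 and -1.28, both resting on marked spots. The part of dye preference in the ratios was not tested.

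Over the 10 genes the median log2 ratio was 0.58, against 0.03 over all genes, and it was 1.19 after median centring, against -0.03 over all probes. For Eno1 the sign turned with the marked spots kept, and for Pfkp it turned without replicate 4. The calls depended on the spread shared with the treatment arrays. When the 2 arrays with both genotypes were fitted alone, 1 gene was called, Pdk1 (adjusted p = 0.0109), where 2.79% of all genes were called higher. Without replicate 1 or without replicate 2 of the treatment arrays of the mutant, 3 genes were called, Pfkl, Slc2a1 and Pdk1, and without either treatment array of the wild type the call of Hk2 was lost. Hk2 was also not called after median centring without loess, where Gpi1, Pfkl, Slc2a1 and Pdk1 were.

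A second reading of the same genotype difference came from the Cy3 levels of the treatment arrays, where all untreated cells carried 1 dye and the arrays were other ones. These levels also enter the H2O2 ratios below. The direction of the direct ratio was chosen by its match with these levels over called probes, so a shared sign of the called genes is no separate support. In Pdk1 the log2 Cy3 levels, marked spots kept, were 7.06 and 6.20 in untreated wild type cells and 8.75 and 8.39 in untreated mutant cells. The groups did not overlap, and the difference was 1.94 ± 0.42 (adjusted p = 0.0586). In Pfkl the levels were 8.64 and 8.42 in the wild type and 10.05 and 9.56 in the mutant, a difference of 1.27 ± 0.39. In Slc2a1 they were 9.37 and 8.75 against 10.18 and 9.75, a difference of 0.91 ± 0.40. All 3 genes were thus higher in both mutant samples than in both wild type samples. In Gpi1 the levels were 11.08 and 10.79 against 11.94 and 11.52, and in Hk2 they were 7.61 and 6.56 against 7.70 and 7.79. For Hk2 the gap between the groups was smaller than the gap between the wild type samples.

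With marked spots kept, both mutant Cy3 levels lay above both wild type levels for 8 of the 10 genes. The levels overlapped for Aldoa and Pfkp. Over all genes both mutant levels were above for 26.9%. None of the 10 passed limma's test on the Cy3 levels, where 0.541% of all genes were called, and Pdk1 alone was under 0.05 before adjustment (adjusted p = 0.11 by limma, marked spots left out). With the marked spots left out, the differences were smaller for the 5 genes named above, from 0.23 for Hk2 to 1.58 for Pdk1. They were below 0 for Aldoa at -0.37, Pgk1 at -0.30 and Ldha at -0.22. Slc2a1, Pfkl and Pdk1 had no marked spot, and their levels moved because the arrays were normalized anew without the marked spots of other probes. On replicate 2 of the wild type treatment arrays the Cy3 level of Slc2a1 went from 8.75 to 9.42 and that of Pfkl from 8.42 to 9.21.

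**Figure D2:**
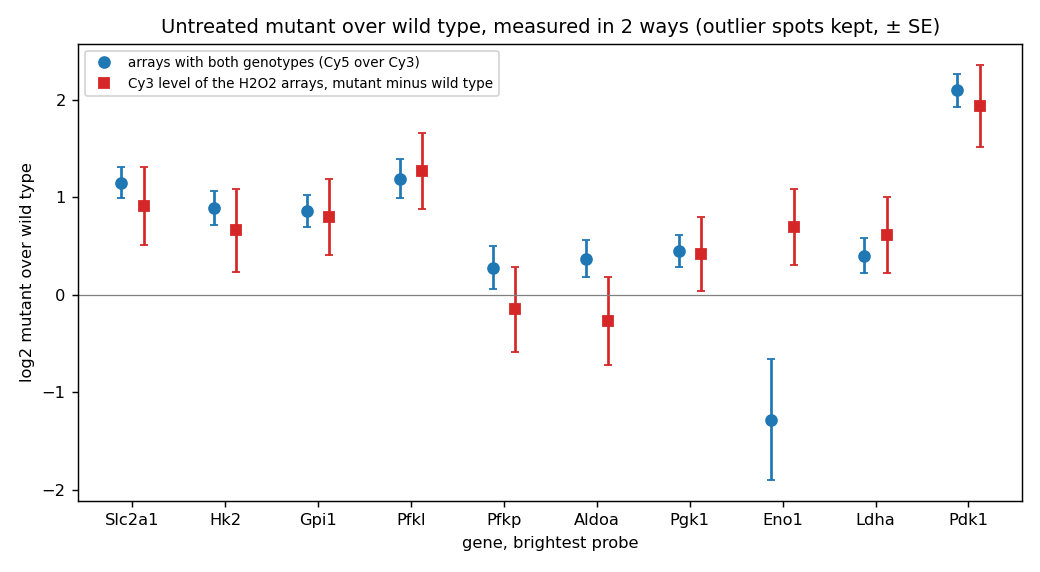
Log2 of untreated mutant over wild type (vertical axis) of the 10 genes by their brightest probes (horizontal axis), from the arrays with both genotypes (circles) and from the Cy3 levels of the treatment arrays (squares), marked spots kept. Bars are limma's moderated SE, with the spread shared over arrays and genes, for 2 arrays, or for 2 against 2 arrays. Slc2a1, Hk2, Gpi1, Pfkl and Pdk1 lie above 0 by both readings, whose shared sign was used to choose the direction, and the readings of Eno1 are -1.28 and 0.70.

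The promoters of the 5 called genes are shown because these genes were higher together and because several are known targets of HIF1, whose binding element has the core ACGTG or GCGTG. Sequences run 5′ to 3′ on the gene's strand, from 250 bases before to 50 bases after the RefSeq start, from RefSeq on the build GRCm38.p6. Capitals mark ACGTG or GCGTG on either strand, so that the other strand reads CACGT or CACGC, and matches that overlap are joined. For Pdk1, which has 2 listed starts, the more upstream one is printed.
Slc2a1, chr4:119108495-119108794, strand +: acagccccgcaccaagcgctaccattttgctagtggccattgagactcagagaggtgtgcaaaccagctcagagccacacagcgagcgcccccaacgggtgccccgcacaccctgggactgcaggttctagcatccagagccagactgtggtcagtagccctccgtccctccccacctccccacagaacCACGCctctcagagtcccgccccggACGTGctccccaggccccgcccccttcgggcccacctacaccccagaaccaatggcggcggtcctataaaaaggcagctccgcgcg
Hk2, chr6:82774405-82774704, strand -: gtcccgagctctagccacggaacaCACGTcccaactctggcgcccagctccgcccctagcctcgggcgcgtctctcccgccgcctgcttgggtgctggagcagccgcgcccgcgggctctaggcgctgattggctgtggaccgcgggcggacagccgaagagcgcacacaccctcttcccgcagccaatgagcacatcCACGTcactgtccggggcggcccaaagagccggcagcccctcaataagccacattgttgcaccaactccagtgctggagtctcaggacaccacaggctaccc
Gpi1, chr7:34230287-34230586, strand -: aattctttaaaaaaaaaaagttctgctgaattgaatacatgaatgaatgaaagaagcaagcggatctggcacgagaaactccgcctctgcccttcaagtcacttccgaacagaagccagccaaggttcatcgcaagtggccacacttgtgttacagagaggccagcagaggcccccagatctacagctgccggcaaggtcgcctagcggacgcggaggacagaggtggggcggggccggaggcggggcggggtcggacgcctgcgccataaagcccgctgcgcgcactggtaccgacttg
Pfkl, chr10:78009758-78010057, strand -: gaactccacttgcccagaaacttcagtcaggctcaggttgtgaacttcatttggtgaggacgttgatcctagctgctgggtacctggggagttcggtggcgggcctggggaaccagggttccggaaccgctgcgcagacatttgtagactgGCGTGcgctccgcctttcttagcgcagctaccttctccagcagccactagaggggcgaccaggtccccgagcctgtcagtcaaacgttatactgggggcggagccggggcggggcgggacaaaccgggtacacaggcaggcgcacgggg
Pdk1, chr2:71872974-71873273, strand +: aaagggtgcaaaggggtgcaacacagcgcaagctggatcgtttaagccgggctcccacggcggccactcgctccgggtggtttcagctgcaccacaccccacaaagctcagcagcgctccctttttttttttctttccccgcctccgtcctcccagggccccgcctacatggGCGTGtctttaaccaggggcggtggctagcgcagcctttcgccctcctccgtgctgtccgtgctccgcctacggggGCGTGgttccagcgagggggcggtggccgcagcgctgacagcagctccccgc

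The Slc2a1 promoter held 1 match to ACGTG and 1 to GCGTG, and that of Hk2 held 2 to ACGTG. The Pfkl promoter held 1 match to GCGTG and the printed one of Pdk1 held 2, while Gpi1 had 0 of either. The other listed Pdk1 promoter also had 0 of either. Over all 10 genes, 5 had ACGTG and 6 had GCGTG in at least 1 listed promoter, and 9 had either. Of 32851 promoters of the same length, 19.6% held ACGTG, 32.4% GCGTG and 43.8% either. The 10 genes have 16 listed promoters between them, so the count per gene is not on the scale of these shares. A match is a string of letters and was not tested for binding.

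In wild type cells 1 of the 10 genes was lower after H2O2, Pdk1, and 0 were higher. Of all genes 0.252% were called, 0.126% lower. Pdk1 had log2 ratios of -1.50 and -1.17, a mean of -1.33 ± 0.17, which is a 2.52-fold lower level 24 hours after the treatment (adjusted p = 0.0465). Pfkl came next with -1.43 and -1.24, a mean of -1.33 ± 0.20, just outside the threshold (adjusted p = 0.0521). Both genes lay below 0 on both arrays.

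The other 8 genes were not called in treated wild type cells. Slc2a1 read 0.10 and 0.35 (mean 0.22, interval -0.14 to 0.59). Hk2 read 0.82 on replicate 2, and 0.71 on the marked spot of replicate 1 (adjusted p = 0.166, or 0.0628 with the marked spot kept). Both readings of Hk2 were close to its dye value of 0.74 with the mutant in Cy5, and the part of dye preference was not tested. Gpi1, Pfkp, Aldoa and Pgk1 had values between -0.14 and 0.09, from 2 unmarked arrays for Aldoa and 1 for the others. The next brightest Pfkp probe had a mean of -0.40 over 2 arrays and was not called. After median centring without loess Gpi1, Pfkp and Aldoa read 0.47, 0.26 and 0.44. Ldha read -0.59 on replicate 1 and -0.27 on the marked spot of replicate 2. The unmarked value had an interval from -1.33 to 0.14, with the spread taken from other genes and arrays. Eno1 read -1.86 on replicate 2 and -3.03 on its marked spot (adjusted p = 0.0738). Its dye value with the mutant in Cy5, which rests on marked spots, was -1.98, and here too the part of dye preference was not tested. The median of the 10 genes was -0.13, against 0 over all genes.

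The single call of Pdk1 was fragile. Leaving out any of the 4 treatment arrays ended it, with adjusted p between 0.176 and 0.731, and median centring without loess gave -1.18 (adjusted p = 0.138). Without replicate 3 or without replicate 4 of the arrays with both genotypes, 4 of the 10 genes were called in the wild type, namely Pdk1, Pfkl and Eno1 lower and Hk2 higher. The same 4 were called when the 2 wild type arrays were fitted alone, where 25% of all genes were called. The readings of Hk2 and Eno1 had the sign of their dye values with the mutant in Cy5, 0.74 and -1.98. Pdk1 was dim in Cy5, at 19.3 and 24.6 after background subtraction, though marked as well above background on both arrays. With normexp, another background correction, its log2 ratio was -0.80 (adjusted p = 0.0326 by limma).

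In mutant cells, 0 of the 9 genes with a value passed the test after H2O2, and 0% of all genes did, the smallest adjusted p over all probes being 0.155. At an unadjusted p under 0.05 there were 6 of the 9, all lower, while 6.4% of all genes were lower at that level and 4937 of 41052 probes reached it in either direction. The 6 were Pdk1, Pfkl, Aldoa, Ldha, Gpi1 and Pgk1. Ldha and Pgk1 had 1 unmarked array each, so their spread was taken from other genes and arrays. Pdk1 read -1.16 and -1.42, a mean of -1.29 ± 0.17 (adjusted p = 0.172). Pfkl read -1.15 and -1.29, a mean of -1.22 ± 0.20 (adjusted p = 0.208). Both genes lay below -1 on both arrays.

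Aldoa, Pgk1, Ldha, Gpi1 and Pfkp had ratios of smaller size than Pdk1 and Pfkl. Aldoa read -0.75 and -0.59 (mean -0.67 ± 0.17, adjusted p = 0.274). Pgk1 read -0.66 ± 0.25 on its 1 unmarked array, and -0.48 on a marked spot. Ldha read -0.88 ± 0.28 on its 1 unmarked array, and -1.08 on a marked spot. Gpi1 read -0.43 and -0.38 (mean -0.41 ± 0.16), and Pfkp -0.34 and -0.58 (mean -0.46 ± 0.24). The other 2 Pfkp probes had means of -0.25 and 0.24, neither called. By their brightest probes these 5 genes were below 0 on every mutant array after loess. Each was above 0 when the arrays were only centred on their medians, from 0.09 for Pfkp to 0.73 for Pgk1. Pdk1 and Pfkl were below 0 either way, at -0.60 and -0.37 without loess. Slc2a1 read 0.12 on both arrays, and Hk2 0.11 and 0.01. Eno1 had no unmarked spot, and its marked spots read -2.15 and -2.45, beside its dye value of -1.98. The median of the 9 genes was -0.66 against 0.01 over all genes, and 0.50 after median centring.

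Fitted on the 2 mutant arrays alone, 4 genes were called lower, Pfkl, Aldoa, Ldha and Pdk1, where 6.16% of all genes were. The same 4 were called without replicate 3, and also without replicate 4, of the arrays with both genotypes, where 4070 of 41052 probes were called.

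The responses of the 2 genotypes were compared by the difference of their log2 ratios, mutant minus wild type. It was called for 0 of the 9 genes with a value and for 0% of all genes, with 2391 of 40267 probes at an unadjusted p under 0.05 and none of the 9 among them. For Pdk1 the difference was 0.05 with an interval from -0.52 to 0.61, and for Pfkl 0.11 with an interval from -0.56 to 0.79. After median centring the differences were 0.58 for Pdk1 and 0.46 for Pfkl. Hk2 had a difference of -0.76 (interval -1.54 to 0.01) and Pgk1 one of -0.75 (interval -1.64 to 0.15). The Pgk1 value rests on 1 unmarked array in each genotype. Aldoa followed with -0.52 (interval -1.09 to 0.04) and the brightest Pfkp probe with -0.43 (interval -1.44 to 0.57). The other 2 Pfkp probes gave 0.16 and 0.28, neither called, so the probes of this gene did not share a direction. Over the 9 genes the median difference was -0.29, against 0 over all genes, and 7 of the 9 were below 0. After median centring the median of the members was 0.07.

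**Figure D3:**
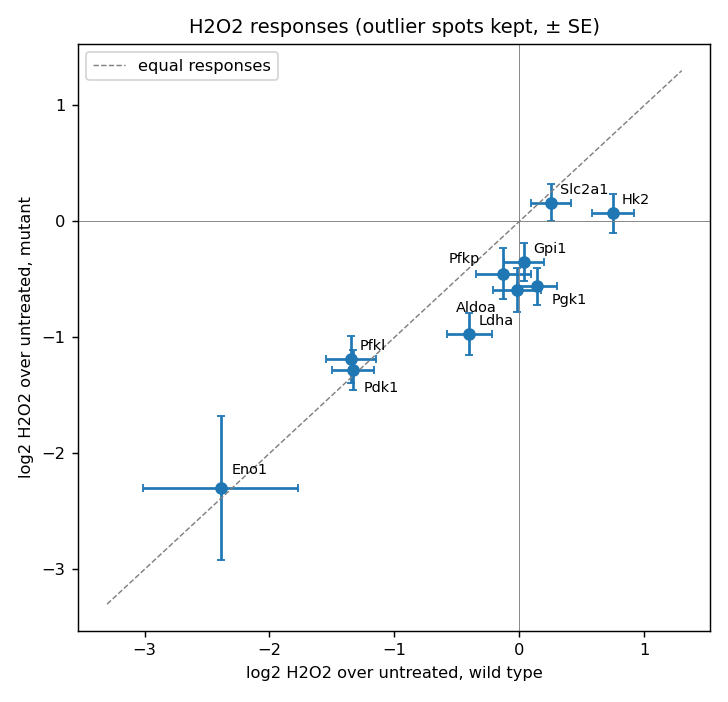
Log2 of H2O2-treated over untreated cells in wild type (horizontal axis) and mutant (vertical axis) of the 10 genes by their brightest probes, marked spots kept. Bars are limma's moderated SE. The dashed line marks equal responses; Pdk1 and Pfkl lie on it near -1.3, and Hk2 lies to its right.

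Genes with several probes allowed a check within an array. The second Aldoa probe gave -0.47, -1.05 and 0.70 in treated wild type cells, treated mutant cells and untreated mutant over wild type, where the brightest gave -0.14, -0.67 and 0.30. Its values had the same signs and were larger in size. In the wild type and between genotypes they rest on 1 unmarked array each, replicate 1 and replicate 3, where the brightest has 2. On those arrays the brightest read -0.19 and 0.50. The second Pgk1 probe gave -0.02, -0.74 and 0.36, against 0.09, -0.66 and 0.37 for the brightest. The number of unmarked arrays differed between these probes in the mutant and between genotypes. In Pgk1 both probes were lowest in the treated mutant. The second Ldha probe was marked as an outlier on 5 of 6 arrays. Its marked spots read -1.59 and -1.37 in treated wild type cells and -1.14 and -1.47 in treated mutant cells, lower than the brightest Ldha probe on all 4 arrays. On replicate 3 of the arrays with both genotypes it read -1.08, and on replicate 4 its unmarked spot read -0.06. Its dye value was -0.74.

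Of 18 further glycolysis genes found on the arrays, 4 were higher and 3 lower in the untreated mutant, beside 10.6% and 8.52% of all genes, with a list median of 0.12. On their own arrays 1 was higher and 3 were lower, beside 2.79% and 2.18% of all genes. Hk1, the ubiquitous hexokinase, had a log2 ratio of 2.15 on its 1 unmarked array, and 2.07 with the marked spot kept (adjusted p = 0.00741, with the spread taken from other genes and arrays). Eno2, the neuronal enolase, read 1.47 and 0.93 (mean 1.20, adjusted p = 0.0121). Pfkm, the muscle phosphofructokinase, read 1.13 and 0.81 (mean 0.97). The 3 genes called lower are known from muscle or testis. Eno3, the muscle enolase, had a mean of -1.88 (adjusted p = 0.00374) and Pgam2, the muscle phosphoglycerate mutase, one of -1.67. Pgk2, the testis form of phosphoglycerate kinase, had a mean of -2.30 with a dye value of -2.15 and a Cy3 genotype difference of 0.08. The bright housekeeping forms Pkm, Pgam1 and Tpi1 were not called, with means of -0.40, -0.20 and 0.45.

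Among 8 regulators of glycolytic flux, 2 were higher and 1 lower in the untreated mutant (list median -0.06). Pdk4, a second pyruvate dehydrogenase kinase, read 3.37 on its 1 unmarked array, and 2.97 with the marked spot kept (adjusted p = 0.00285, on the same footing as Hk1). Tigar, a fructose bisphosphatase that slows glycolysis, read 1.45 and 2.7 (mean 2.08). Pdk2 read -2.11 and -0.91 (mean -1.51). The pyruvate dehydrogenase kinases thus differed in direction, with Pdk1 and Pdk4 higher and Pdk2 lower. The 5 subunits of the pyruvate dehydrogenase complex, the target of these kinases, were not called, from Dlat at -0.59 to Dld at 0.12. Of 14 other sugar and lactate transporters, 2 were higher and 0 lower (median 0.26), near the 10.6% of all genes called higher. They were Slc2a6, a further sugar transporter, with a mean of 1.64, and the lactate exporter Slc16a3, with a mean of 1.57.

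**Figure D4:**
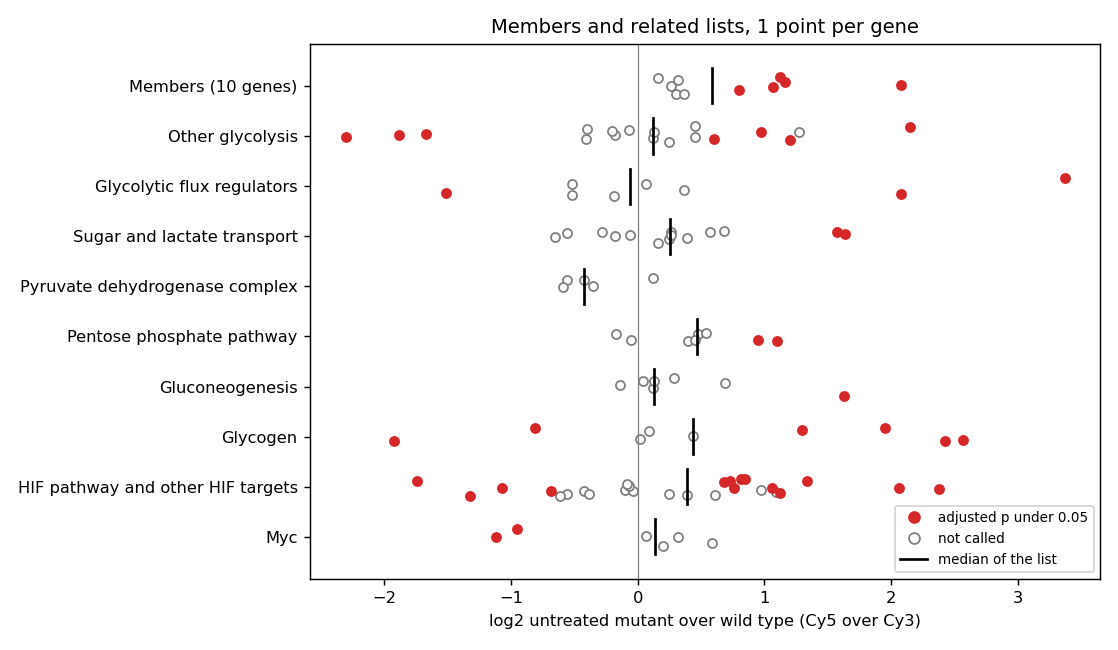
Log2 of untreated mutant over wild type (horizontal axis) for the 10 genes and for 9 lists of related genes (rows), 1 point per gene, with the median of each list as a bar. Filled points had an adjusted p under 0.05. The called members lie on the right of 0, while called genes of the other glycolysis list lie on both sides.

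Of 27 genes of the HIF pathway and its targets outside glycolysis, 10 were higher and 4 lower in the untreated mutant (median 0.39), beside 10.6% and 8.52% of all genes. The counts were 8 and 1 after median centring, with a median of 0.70, and 4 and 2 with the replicate block. These settings called 4373 and 3452 of 41099 probes. Ddit4, a stress-induced inhibitor of mTORC1 signalling, read 2.44 and 2.33 (mean 2.38, adjusted p = 0.00289). Egln3, a HIF prolyl hydroxylase that HIF also induces, read 1.99 and 2.14 (mean 2.06, adjusted p = 0.00227). Egln3 was close to Pdk1 in size, and Ddit4 exceeded it. Ero1a, an oxidase of disulfide formation, had a mean of 1.34. The prolyl hydroxylase Egln1 was lower at -1.32. Fitted on their own 2 arrays, 3 of the 27 were called higher and 1 lower, beside 2.79% and 2.18% of all genes. Of 6 genes of the Myc network, 0 were higher and 2 lower, Mycn at -1.12 and Myc at -0.95, and neither was called after median centring.

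After H2O2, 1 gene of these lists was called in wild type cells and 0 in mutant cells. With each treatment fitted on its own arrays, the further glycolysis genes had 4 calls higher and 2 lower in the wild type and 1 and 2 in the mutant. Of all genes, 13.2% were then higher and 11.8% lower in the wild type, and 4.77% and 6.16% in the mutant. The 1 gene called in the main fit was Ero1a. It read 1.70 and 1.33 in treated wild type cells (mean 1.51, adjusted p = 0.0404) and -0.83 and -1.0 in treated mutant cells. The difference of -2.43 was not called (adjusted p = 0.157). Among the other lists the lowest and highest in the wild type were Pgk2 at -2.27 and Adpgk at 0.93 for glycolysis, Pdk2 at -2.02 and Pfkfb4 at 0.83 for the regulators, Bsg at -1.66 and Slc16a1 at 0.65 for transport, and Pdhx at -0.07 and Dld at 0.71 for the pyruvate dehydrogenase complex. In the mutant they were Pgk2 at -1.61 and Pklr at 0.68 for glycolysis, and Slc16a3 at -1.20 and Slc2a10 at 0.26 for transport. Both Pgk2 values had the sign of its dye value given above, and the part of dye preference in them was not tested.

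Some markers of cell types also differed between the untreated genotypes, beside 10.6% of all genes called higher and 8.52% lower. Of the 12 fibroblast markers 11 had a value, 6 of them were called higher in the untreated mutant, up to Dcn at 2.71, and 0 were lower. Of 6 mast cell markers 2 were lower, with Mcpt8 at -4.83, and their summed raw Cy3 signal was 4350 and 5270 in untreated wild type cells against 569 and 545 in untreated mutant cells. The raw Cy3 sums of the fibroblast markers were 231000 and 232000 against 108000 and 129000, before any normalization. Of 8 epithelial markers 3 were lower and of 12 skeletal muscle markers 2 were lower, while 0 of 9 macrophage and 0 of 8 endothelial markers were called. Of 4 red cell markers 1 was higher. The counts of skeletal muscle and red cell markers are too small to set apart from the shares of all genes. Xist, which is expressed from the inactive X of female cells, read -0.98 in untreated mutant over wild type (adjusted p = 0.0134) and -1.43 in the treated wild type (adjusted p = 0.0465). The part of these cell types in the member values was not tested. In RNA from a whole culture, more cells of a type and more RNA per cell cannot be told apart.

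**Figure D5:**
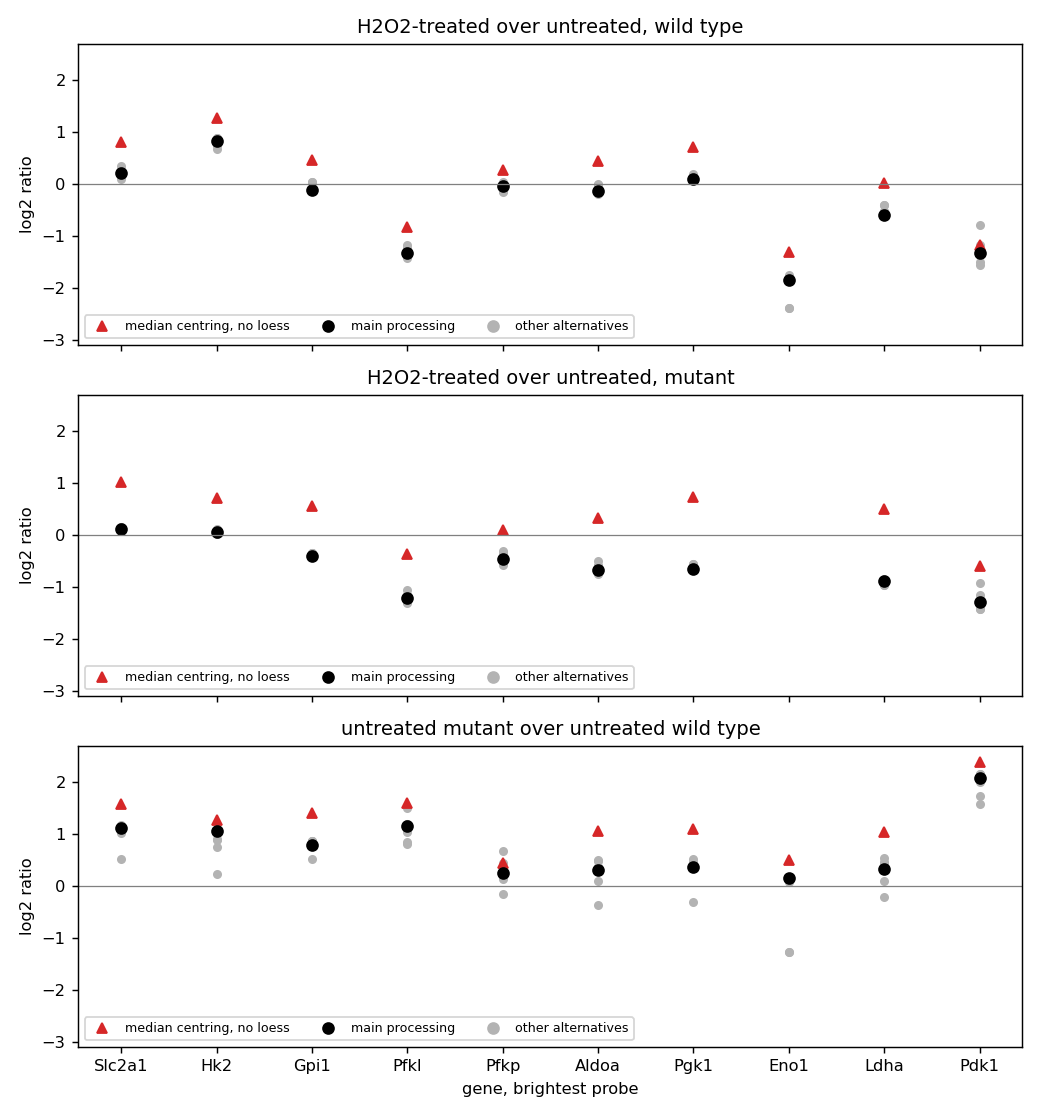
Log2 ratio (vertical axis) of the brightest probe of each of the 10 genes (horizontal axis) under the main processing (black), median centring without loess (red triangles) and the other alternatives (grey), 1 panel per comparison. The triangles lie above the black points for every gene, so that Gpi1, Pfkp, Aldoa, Pgk1 and Ldha in the treated mutant are above 0 by the triangles and below 0 by the black points.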

How the data were processed

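RNA of untreated and H2O2-treated wild type and Wrn mutant fibroblasts was compared on 6 two-colour Agilent Whole Mouse Genome 60-mer arrays. The labels call it total RNA and the study's methods cytoplasmic RNA. The authors deposited scanner output per array, per the file headers from Feature Extraction A.7.5.1, with mean and local background intensity per spot in both dyes, spot flags without a unit, used here to drop spots, and a log10 ratio of Cy5 over Cy3. They also deposited a series table of log2 ratios, background subtracted and normalized by loess, which was used as an alternative.

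Here the median local background was subtracted from the mean intensity, each array was normalized by its own loess curve, control and outlier spots were dropped but not saturated ones, and repeated spots of a probe were averaged. All 6 arrays were fitted together by limma 3.58.1 (lmFit and eBayes, R 4.3.3, residual df 3, prior df 3.98), with 1 coefficient per comparison, and p-values, two-sided, were adjusted by Benjamini-Hochberg over every tested non-control probe. For Cy3 levels the average log intensities were quantile normalized across arrays. Other software was matplotlib 3.10.9 and pandas 2.3.3 under Python 3.11.15. The probe of the highest mean intensity stands for a gene. Only those probes with a RefSeq accession, 20716, were renamed through a RefSeq gene table of GRCm38.p6, which also gave the promoters. The procedure was tested on simulated data.

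All 10 genes are named. Other lists name called genes, at most the 5 of the largest change per list and comparison, or else their highest and lowest. The non-called genes Pkm, Pgam1 and Tpi1 were added after their values were seen. Some called genes of the lists are counted but not reported here. Genes, lists and tests were chosen with earlier results of these data known, and the direction of the genotype arrays and the alternatives of outlier spots in the loess curve and outlier spots kept for Cy3 levels after the data were examined. Replicates were separate biological RNA samples by the study's methods. Background correction, normalization, outlier and saturated spots, a filter on dim probes, own-array fits, the study's thresholds (fold of 2, mean log2 intensity of 6, adjusted p of 0.005), a replicate block, the day of feature extraction and each array left out were tried as alternatives.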

Additional observations from a re-analysis of the deposited data

How the results depend on the processing

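In the treated wild type, where 1 member was called, the count was 2 with outlier spots kept, 2 in the authors' series table, 2 with probes well above background, 2 with outlier spots in the loess curve (chosen after seeing the data), 3 with normexp, 4 on its own arrays, 0 after median centring, 0 with the extraction day as a random block and 0 at the study's thresholds. Leaving out single arrays gave 0 to 4. In the treated mutant it was 4 on its own arrays against 0, and 0 to 4 without single arrays. For untreated mutant over wild type it was 1 on its own arrays, 3 with the extraction day (Pfkl, Slc2a1 and Pdk1, the 4 treatment arrays sharing day 1 and the others having days 2 and 3) and 1 at the study's thresholds, against 5, and 3 to 6 without single arrays. The other settings gave counts within 1.5 times these, and the difference of the responses stayed at 0 throughout. Over all probes, 104 were called in the treated wild type, and 982 with outlier spots kept, 2240 with normexp, 13 after median centring, 578 with Feature Extraction's own ratio and 10115 on its own arrays. Of these 48 of the 104 were higher, against 61.5%, 84.6% and 74.9% with normexp, median centring and Feature Extraction's ratio. For untreated mutant over wild type 4040 of 8061 were higher, against 60.8% after median centring, and 2057 were called on its own arrays. In the treated mutant 1875 probes were called after median centring and 4380 on its own arrays, against 0. For the difference 513 were called on its own arrays and 131 with the extraction day, against 0.

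With replicate number as a block, the wild type count was 0 and the untreated genotype count 3 (Pfkl, Slc2a1 and Pdk1, with Gpi1 at an adjusted p of 0.0811 and Hk2 at 0.134 by limma), and no other count changed. Deviations of same-numbered treatment arrays had a correlation of -0.046, over 2 pairs only, so the numbers do not establish a pairing.

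Signs turned in 26 values of single genes. Median centring turned, in the treated wild type, Gpi1 to 0.47, Pfkp to 0.26, Aldoa to 0.44 and Ldha to 0.02, in the treated mutant Gpi1 to 0.55, Pfkp to 0.09, Aldoa to 0.33, Pgk1 to 0.73 and Ldha to 0.50, and in the difference Gpi1 to 0.07, Pgk1 to 0.03, Ldha to 0.48 and Slc2a1 to 0.23. Outlier spots kept and the series table each turned Gpi1 in the treated wild type to 0.04 and Eno1 in the untreated genotypes to -1.28, and Feature Extraction's own ratio turned Pfkp in the treated wild type to 0.03. The Cy3 levels turned Aldoa to -0.37, Pgk1 to -0.30 and Ldha to -0.22. Normexp turned the difference of Pdk1 to -0.13. Leaving out an array gave Pfkp between genotypes from -0.15 to 0.68, the difference of Slc2a1 from -0.23 to 0.02 and that of Pdk1 from -0.12 to 0.21, with -0.08 without replicate 1 of the mutant. The causes were not tested. With 2 arrays per comparison and Cy5 well above background on at most 69.2% of spots, small changes of dim probes were not detectable.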

Other observations

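Glycogen metabolism, which stores and releases glucose 6-phosphate, differed between the untreated genotypes in both directions. Of 9 genes, 4 were higher and 2 lower in the mutant (median 0.44), against 10.6% of all genes higher and 8.52% lower. The branching enzyme Gbe1 read 2.93 and 2.21 (mean 2.57, adjusted p = 0.00123). The liver phosphorylase Pygl, which releases glucose from glycogen, read 2.53 and 2.32 (mean 2.43, adjusted p = 0.00127). Phosphoglucomutase Pgm1 read 1.97 and 1.94 (mean 1.95) and the primer protein Gyg 1.70 and 0.91 (mean 1.3). The other phosphoglucomutase, Pgm2, was lower at -0.81. The synthase Gys1 was lower, at -2.57 and -1.27 (mean -1.92, adjusted p = 0.0109). Gbe1, Pygl and Pgm1 were called under all 7 alternative settings tried for these lists. In the pentose phosphate pathway 2 of 8 genes were higher, H6pd at 1.10 and Pgd at 0.95, and in gluconeogenesis 1 of 7, the mitochondrial Pck2 at 1.63. After H2O2 none of these 3 lists had a call in either genotype, but other settings gave some. On their own arrays the wild type had 3 higher and 1 lower in the pentose phosphate pathway, 0 and 2 in gluconeogenesis and 3 and 1 in glycogen metabolism. Of all genes, 13.2% were called higher and 11.8% lower in that fit. After median centring the mutant had 3 and 0, 1 and 1, and 1 and 0, where 1875 of 41052 probes were called. In the wild type they ran from Gys1 at -1.42 to Pygl at 1.33, from Tkt at -0.68 to Taldo1 at 1.22, and from G6pc at -0.75 to Pck2 at 0.60, and in the mutant from Pgm1 at -0.61 to Pygl at 0.65, from Tkt at -0.73 to Taldo1 at 0.64, and from Pck2 at -0.62 to Pcx at 0.52.

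The genes outside the lists whose log2 ratios over the 6 arrays came closest to the median of the 10 members were Mrpl54, AK082369, Yipf3, Gpx4 and Serf2, among 1898 genes with a value on all arrays and a mean log2 intensity of at least 8. Mrpl54, a protein of the mitochondrial ribosome, had a root mean square difference of 0.143 from that median. It read -0.34 and -0.40 in the treated wild type, -0.51 and -0.63 in the treated mutant and 0.58 and 0.79 between the untreated genotypes. Serf2, the fifth of them, had a root mean square difference of 0.236.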
